A study of Homo sapiens with 42 samples.

Results

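The response of KG-1, a human acute myeloid leukaemia line, to decitabine is described here across all genes. The members are the 6 KG-1 libraries of the deposited table, 3 from cells given decitabine and 3 from cells given the solvent DMSO, chosen by column name. They are 6 of 42 labelled samples and 6 of the 30 libraries analysed here. Both groups carry the genotype label WT. Treated cells received 100 nM decitabine on days 0, 1 and 2, controls received DMSO, and RNA of both was taken at 72 h. The AML lines SKM-1, OCI-AML3, MOLM-13 and MOLM-14 were treated alike, with 3 libraries per arm, and serve for comparison. The design text leaves MOLM-14 out, while the labels of its samples name it. All 6 libraries come from 1 line, with wells seeded in duplicate or triplicate, and the spread behind the p-values is that between libraries of these wells, which may be technical only.

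Decitabine is a deoxycytidine analogue that enters DNA during replication and traps DNA methyltransferases there, so that new strands lose cytosine methylation at CpG dinucleotides. Genes held silent by promoter methylation, such as germline genes, are known to come on after such treatment. Myeloid progenitors that mature into granulocytes store enzymes and toxic proteins in granules: myeloperoxidase and serine proteases in neutrophil precursors, major basic protein and ribonucleases in eosinophils, histamine and tryptases in basophils and mast cells. KG-1 is known as a CD34-positive line with an FGFR1 fusion gene and without normal p53.

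Values are normalised counts, that is, estimated reads per gene divided by factors that make libraries comparable. In units of 1e6 reads, the depth estimated from the value of 1 read was 23.5, 4.59 and 22.5 in the decitabine libraries and 19.1, 2.97 and 31.2 in the DMSO libraries, so replicate 2 of both arms was shallow. Libraries of the same arm correlated with r of 0.924 to 0.974 across genes, and libraries of different arms with r of 0.887 to 0.97. Mitochondrial genes took 12.1% ± 0.414 of the total after decitabine and 11.3% ± 0.8696 after DMSO (SD, n = 3 each; exact two-sided permutation p = 0.3, where 0.1 is the smallest that 3 against 3 can give).

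After decitabine 328 genes rose and 76 fell among 16824 tested, or 1.95% and 0.452% (2.4% in all). A call is an adjusted p below 0.05 in limma (Benjamini-Hochberg) on log2(value + 1), with less weight for the shallow libraries. This scale understates the change of genes with low values. Rises were the larger changes: their median log2 fold change was 1.29 and the highest 7.43, against a median of -0.85 and a lowest value of -2.66 among falls. A size of at least 2 was reached by 76 rises and 2 falls. In DMSO the risen genes had a median level of 137 normalised counts and the fallen genes 525, against 248 over all genes tested. The arms did not overlap for 324 rises and 74 falls, against 3202 of all genes tested (19%). Calls were made on these same values, so the lack of overlap follows largely from the call. The counts of rises and falls depend on the libraries and their weights. They were 97 and 12 with equal weights and 90 and 10 without replicate 2 of both arms. They were 54 and 8 without decitabine replicate 1, 188 and 40 without decitabine replicate 2 and 58 and 8 without decitabine replicate 3. Without DMSO replicate 1, 2 or 3 they were 157 and 27, 274 and 46, and 201 and 27. For most single genes the highest adjusted p with any 1 library left out is therefore given, and a call is said to be lost where that p is no longer below 0.05. Where nothing is said of this, whether the call held is not reported here.

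**Figure D1:**
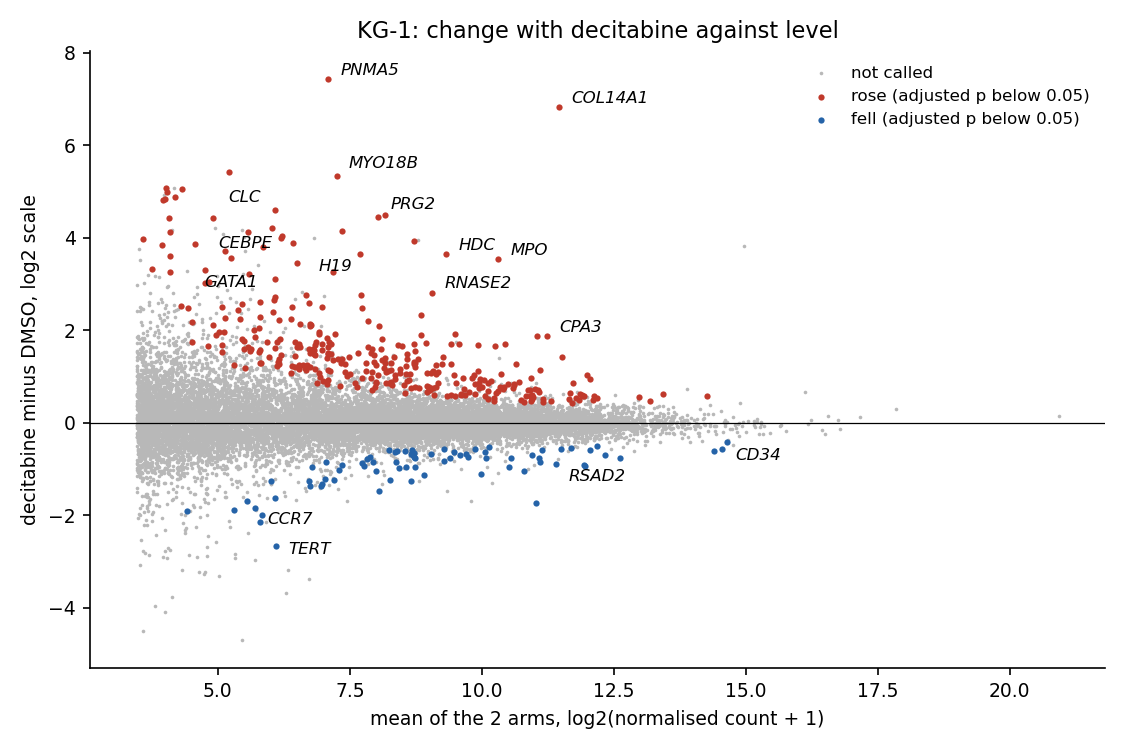
Each point is a gene tested in KG-1, with its level (log2 scale, x axis) and its decitabine minus DMSO difference (log2 scale, y axis). Coloured points were called at an adjusted p below 0.05, 328 above 0 and 76 below, and the highest rise (7.43) lies farther from 0 than the lowest fall (-2.66).

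Marker genes of eosinophils, basophils and mast cells were among the rises. Of 17 listed markers 15 reached the filter (a mean of at least 10), and 9 of these rose and 0 fell: CLC, EPX, PRG2, RNASE2, FCER1A, HDC, CPA3, TPSAB1 and TPSB2. The median log2 fold change was 1.64, against 0.02 over all genes tested. Of the list, 5 rose with equal weights, 5 without replicate 2 of both arms and 4 to 10 with any 1 library left out. CLC, EPX and TPSAB1 were below 10 in DMSO and passed the filter through the decitabine arm. Below the filter stayed PRG3, at most 0.812, and the interleukin-5 receptor chain IL5RA, at 1.602, 35.6 and 6.403 against 0, 0 and 0. In bulk RNA, more cells with these transcripts and more of them per cell cannot be told apart.

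The promoters of 5 risen members of this list are shown, and they are poor in CpG. These are all the risen members with an entry among the RefSeq promoters used. PRG2, EPX, TPSAB1 and TPSB2 rose and had no entry. Among uncalled members GATA2 and KIT hold 24 and 34 CpG. MS4A2, CCR3, SIGLEC8 and HPGDS, also uncalled, are as poor as the risen members, with 0, 1, 3 and 4. Each line gives the 250 bases before the RefSeq start (GRCh38.p14), 5' to 3' on the gene's strand. Capitals mark GATAA or its reverse complement TTATC, which GATA factors are known to bind.
CLC, chr19:39738030-39738279, minus strand: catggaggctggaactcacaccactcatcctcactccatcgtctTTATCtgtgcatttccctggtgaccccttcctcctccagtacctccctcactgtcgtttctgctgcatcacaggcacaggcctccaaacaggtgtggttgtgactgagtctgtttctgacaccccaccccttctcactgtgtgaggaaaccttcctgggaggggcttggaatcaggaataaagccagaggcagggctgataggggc
HDC, chr15:50265727-50265976, minus strand: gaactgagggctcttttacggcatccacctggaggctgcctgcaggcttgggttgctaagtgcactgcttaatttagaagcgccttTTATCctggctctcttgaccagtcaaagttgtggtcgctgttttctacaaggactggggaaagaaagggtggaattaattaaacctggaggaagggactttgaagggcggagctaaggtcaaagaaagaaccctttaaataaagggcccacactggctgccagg
CPA3, chr3:148865046-148865295, plus strand: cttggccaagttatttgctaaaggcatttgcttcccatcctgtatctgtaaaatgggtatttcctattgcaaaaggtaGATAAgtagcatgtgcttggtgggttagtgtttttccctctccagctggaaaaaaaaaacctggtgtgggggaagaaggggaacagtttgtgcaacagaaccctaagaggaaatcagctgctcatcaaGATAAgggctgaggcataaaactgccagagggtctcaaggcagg
FCER1A, chr1:159302086-159302335, plus strand: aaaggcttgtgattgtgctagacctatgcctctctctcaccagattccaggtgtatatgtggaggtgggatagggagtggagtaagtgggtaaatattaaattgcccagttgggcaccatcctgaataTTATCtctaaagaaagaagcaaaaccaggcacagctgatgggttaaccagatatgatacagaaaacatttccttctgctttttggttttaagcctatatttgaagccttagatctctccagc
RNASE2, chr14:20955237-20955486, plus strand: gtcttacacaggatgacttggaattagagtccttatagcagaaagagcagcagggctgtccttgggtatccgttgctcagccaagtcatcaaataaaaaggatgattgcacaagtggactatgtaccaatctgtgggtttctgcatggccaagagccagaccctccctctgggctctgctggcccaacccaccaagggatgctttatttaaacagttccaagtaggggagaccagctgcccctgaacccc
CLC holds 2 CpG, HDC 4, RNASE2 1, and CPA3 and FCER1A 0. The FCER1A window lies far inside the annotated span of the gene (chr1:159289714-159308224), and other starts were not looked at. Of the tested list 11 members had an entry, with a median of 2 CpG, against 21 for tested protein-coding genes. GATAA, counted on both strands, stood in 6 of the 11 (54.5%), against 12.9% of tested protein-coding genes and 20.4% of all promoters in the table. The 6 were CLC, HDC, CPA3 and FCER1A, which rose, and MS4A2 and HPGDS, which were not called. RNASE2 rose and has no such letters in the window. Over all risen protein-coding genes with an entry, GATAA stood in 18.3%. Median G+C was 49.6% in the list, 64.4% in tested protein-coding genes and 58% in all promoters. The part of base composition in these shares was not tested. A match describes letters and is not a bound site.

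Eosinophil genes were among the largest rises. PRG2 (ENSG00000186652.10, chr11:57386794-57390657 in GRCh38), the major basic protein, was at 449, 593 and 436 normalised counts after decitabine and 17.1, 43.97 and 19.2 after DMSO. The arms were far apart (log2 fold change 4.45, SE 0.26, adjusted p = 0.000172, at most 0.00693 with any 1 library left out). CLC (ENSG00000105205.7, chr19:39731250-39738028), whose product forms Charcot-Leyden crystals, was at 128, 146 and 113 against 5.01, 0 and 5.35. Its DMSO values were close to 0 (log2 fold change 4.599, SE 0.51, adjusted p = 0.00468, lost without decitabine replicate 1 or 3, with values up to 0.0721). RNASE2 (chr14:20955452-20956436), the eosinophil-derived neurotoxin, was at 836, 1031 and 924 against 127, 166 and 117 (log2 fold change 2.82, SE 0.14, adjusted p = 0.000117, at most 0.00368 with any 1 library left out). RNASE3 (chr14:20891399-20892348), the eosinophil cationic protein, is a close copy of RNASE2 that could share reads with it. It was at 129, 81.7 and 107 against 16.03, 0 and 5.35 (log2 fold change 3.81, SE 0.69, adjusted p = 0.0328, lost without decitabine replicate 1, 2 or 3, or DMSO replicate 3, with values up to 0.215). EPX (chr17:58192737-58205174), the eosinophil peroxidase, was low, at 21.9, 30.1 and 13.6 against 0, 0 and 0.595, which is 1 read in the DMSO arm. Its fitted change depends on the pseudocount (log2 fold change 3.97, SE 0.8027, adjusted p = 0.0491, lost without decitabine replicate 3, or DMSO replicate 1 or 3, with values up to 0.246).

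Mast cell and basophil genes rose too. HDC (chr15:50241947-50266026), the enzyme that makes histamine, was at 1154, 1278 and 1160 against 81.5, 75.8 and 108 normalised counts, all decitabine values far above DMSO (log2 fold change 3.65, SE 0.16, adjusted p = 7.07e-05). CPA3 (chr3:148865256-148897196), the mast cell carboxypeptidase, was at 3901, 3723 and 3750 against 1070, 966 and 1016, with little spread in either arm (log2 fold change 1.88, SE 0.09, adjusted p = 8.23e-05). HDC was called under 19 of 19 alternatives and CPA3 under 18. FCER1A (chr1:159289714-159308224), the binding chain of the IgE receptor, was at 253, 189.7 and 235 against 112, 111 and 109 (log2 fold change 1.097, SE 0.16, adjusted p = 0.0132, lost without decitabine replicate 1 or 3, or DMSO replicate 1, with values up to 0.128). The tryptase genes TPSAB1 (chr16:1240696-1242554) and TPSB2 are near copies whose reads may be split between them. TPSAB1 was at 34.2, 25.8 and 33.8 against 0, 0 and 1.78, or 3 reads in the DMSO arm (log2 fold change 4.43, SE 0.73, adjusted p = 0.0232, lost without decitabine replicate 1, 2 or 3, or DMSO replicate 1, with values up to 0.237). TPSB2 was at 56.8, 93.3 and 63.5 against 17.1, 26.4 and 20.9 (log2 fold change 1.64, SE 0.27, adjusted p = 0.0225). Whether the TPSB2 call held with 1 library left out is not reported here. HDC, CPA3 and TPSB2 fall outside the rule for named genes and were chosen after their values were seen, as were the uncalled members that follow.

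Members that did not pass the test included GATA2, a factor of progenitors and mast cells, at 11730, 13150 and 10570 against 8728, 10060 and 8667 (log2 fold change 0.36, adjusted p = 0.106). The stem cell factor receptor KIT had -0.05, the prostaglandin D synthase HPGDS 0.22, the IgE receptor beta chain MS4A2 0.69 and the eosinophil surface genes CCR3 and SIGLEC8 -0.31 and 0.69. The summed value of the list was 21890 to 25630 after decitabine and 14050 to 16250 after DMSO.

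**Figure D2:**
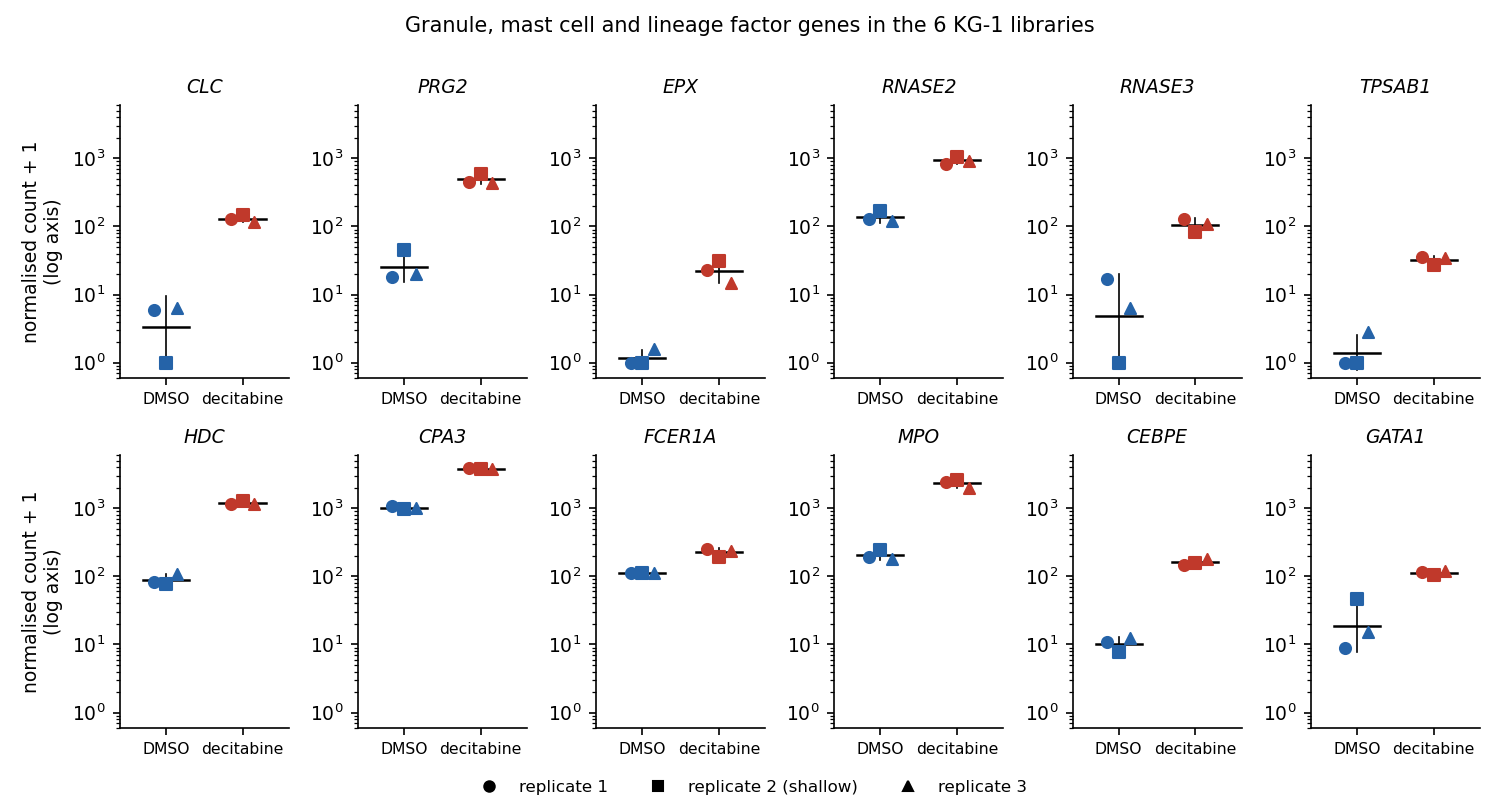
Normalised counts + 1 (log axis, y) of granule and lineage genes in each KG-1 library, blue for DMSO and red for decitabine, with a symbol for each replicate. Horizontal lines are means and vertical lines 1 SD on the log scale (n = 3), and CLC, PRG2, MPO and CEBPE have every decitabine value above every DMSO value.

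Granule genes of neutrophil precursors rose as well. Of 9 tested neutrophil genes (18 listed) 5 rose and 0 fell, with a median log2 fold change of 1.18: MPO, PRTN3, CTSG, RNASE2 and RNASE3. RNASE2 and RNASE3 are ribonucleases of eosinophil granules too, and RNASE2 stands on both lists. RNASE3 and ELANE were below 10 in DMSO and passed the filter through the decitabine arm. Of the neutrophil list, 3 rose with equal weights, 3 without replicate 2 of both arms and 2 to 4 with any 1 library left out. MPO (ENSG00000005381.8, chr17:58269856-58280935), the myeloperoxidase of azurophil granules, was at 2424, 2590 and 1970 against 193, 241 and 177. The arms were widely separated (log2 fold change 3.54, SE 0.14, adjusted p = 5.38e-05, at most 0.00203 with any 1 library left out). CTSG (chr14:24573522-24576260), cathepsin G, was at 763, 938 and 739 against 360.4, 280.3 and 298 (log2 fold change 1.25, SE 0.14, adjusted p = 0.00431, lost without decitabine replicate 1, with values up to 0.0518). PRTN3, proteinase 3, was at 154, 172 and 100.5 against 59.6, 59.8 and 52.4 (log2 fold change 1.18, SE 0.24, adjusted p = 0.0491). Whether the PRTN3 call held with 1 library left out is not reported here. ELANE, neutrophil elastase, was at 27.3, 19.9 and 15.9 against 13.8, 0 and 12.9 and was not called (adjusted p = 0.625). Genes of later granules were near 0 in every library, with LTF at most 1.37, CAMP 1.15, LCN2 0.764 and MMP8 1.35. The summed value of the list was 5047 to 6162 after decitabine and 1532 to 2405 after DMSO. The part of a changed number of such cells was not tested.

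Of 13 tested myeloid transcription factors 2 rose and 0 fell (median log2 fold change 0.28). CEBPE (chr14:23117304-23119616), a factor of late granulocyte maturation whose DMSO mean was below the filter, was at 148, 155 and 181 against 10.02, 6.64 and 11.3. Every decitabine value was far above DMSO (log2 fold change 3.88, SE 0.26, adjusted p = 0.000404, at most 0.0151 with any 1 library left out). GFI1 (chr1:92474762-92486876), a repressor that favours granulocytes, was at 1242, 1217 and 1305 against 679, 759.9 and 691 (log2 fold change 0.87, SE 0.09524, adjusted p = 0.00451, lost without decitabine replicate 1 or 3, with values up to 0.0593). CEBPA was at 873, 1293 and 881 against 587, 789.8 and 505 and was not called (adjusted p = 0.07395), and SPI1, which encodes PU.1, had a log2 fold change of 0.13 (adjusted p = 0.838).

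Of 17 tested monocyte and macrophage genes 3 rose and 0 fell (median log2 fold change 0.78), and 2 rose with equal weights, 1 without replicate 2 of both arms and 1 to 4 with any 1 library left out. FCGR2A (chr1:161505430-161524013), an IgG receptor that granulocytes also carry, was at 1112, 925 and 1130 against 373, 243 and 332 (log2 fold change 1.696, SE 0.14, adjusted p = 0.00145, at most 0.02695 with any 1 library left out). CD68 (chr17:7579467-7582113), a lysosomal protein, was at 134, 266 and 160.5 against 44.8, 28.2 and 52.5 (log2 fold change 1.75, SE 0.26, adjusted p = 0.0157, lost without decitabine replicate 1 or 3, or DMSO replicate 1, with values up to 0.113). LYZ (chr12:69348341-69354234), lysozyme, was at 1424, 1189 and 1371 against 566, 540.1 and 725 (log2 fold change 1.12, SE 0.13, adjusted p = 0.00719, lost without decitabine replicate 1 or 3, with values up to 0.0724). CD14 was at most 3.58 and S100A12 0.595 in any library. The summed value of the list was 5949 to 6260 after decitabine and 3918 to 4052 after DMSO.

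GATA1 (chrX:48786554-48794311), the factor of erythroid, megakaryocyte, eosinophil and mast cells, was at 114, 103 and 117 against 7.75, 45.99 and 14.1, the highest DMSO value being in the shallow library (log2 fold change 3.11, SE 0.42, adjusted p = 0.0115, lost without decitabine replicate 1 or 3, with values up to 0.103). Of 8 tested megakaryocyte genes 3 rose (median 0.95), and 2 rose with equal weights, 0 without replicate 2 of both arms and 0 to 4 with any 1 library left out. The collagen receptor GP6 was at 113, 114 and 118 against 10.7, 19.3 and 25.2 (log2 fold change 2.71, SE 0.35, adjusted p = 0.00989, lost without decitabine replicate 1 or 3, with values up to 0.0895). The integrin chain ITGB3 was at 48.9, 33.9 and 55.5 against 13.8, 19.6 and 10.6 (log2 fold change 1.89, SE 0.31, adjusted p = 0.0242, lost without decitabine replicate 1 or 3, or DMSO replicate 1 or 3, with values up to 0.182) and its partner ITGA2B at 1887, 2558 and 2203 against 1196, 1035 and 1085 (log2 fold change 0.89, SE 0.12, adjusted p = 0.0107, lost without decitabine replicate 3, with values up to 0.0931). Platelet factor PF4 was at 0 in all libraries, and so were the globin genes HBA2, HBG1 and HBG2, with HBB at most 0.851. GATA1 was the 1 gene called of 4 tested erythroid genes.

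Of 16 tested stem and progenitor genes 0 rose and 1 fell (median 0.01). CD34 (chr1:207880972-207911402), the defining surface marker of the line, was at 21330, 21650 and 22770 against 27560, 28790 and 31070. It fell a little, without overlap (log2 fold change -0.41, SE 0.08, adjusted p = 0.0491, lost with any 1 library left out, with values up to 0.242). In DMSO its means in the lines MOLM-13, MOLM-14, OCI-AML3 and, last, SKM-1 were 3.94, 80.9, 45.2 and 6.75. FLT3, MEIS1 and HOXA9 had log2 fold changes of -0.1033, -0.24 and -0.25 and were not called.

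**Figure D3:**
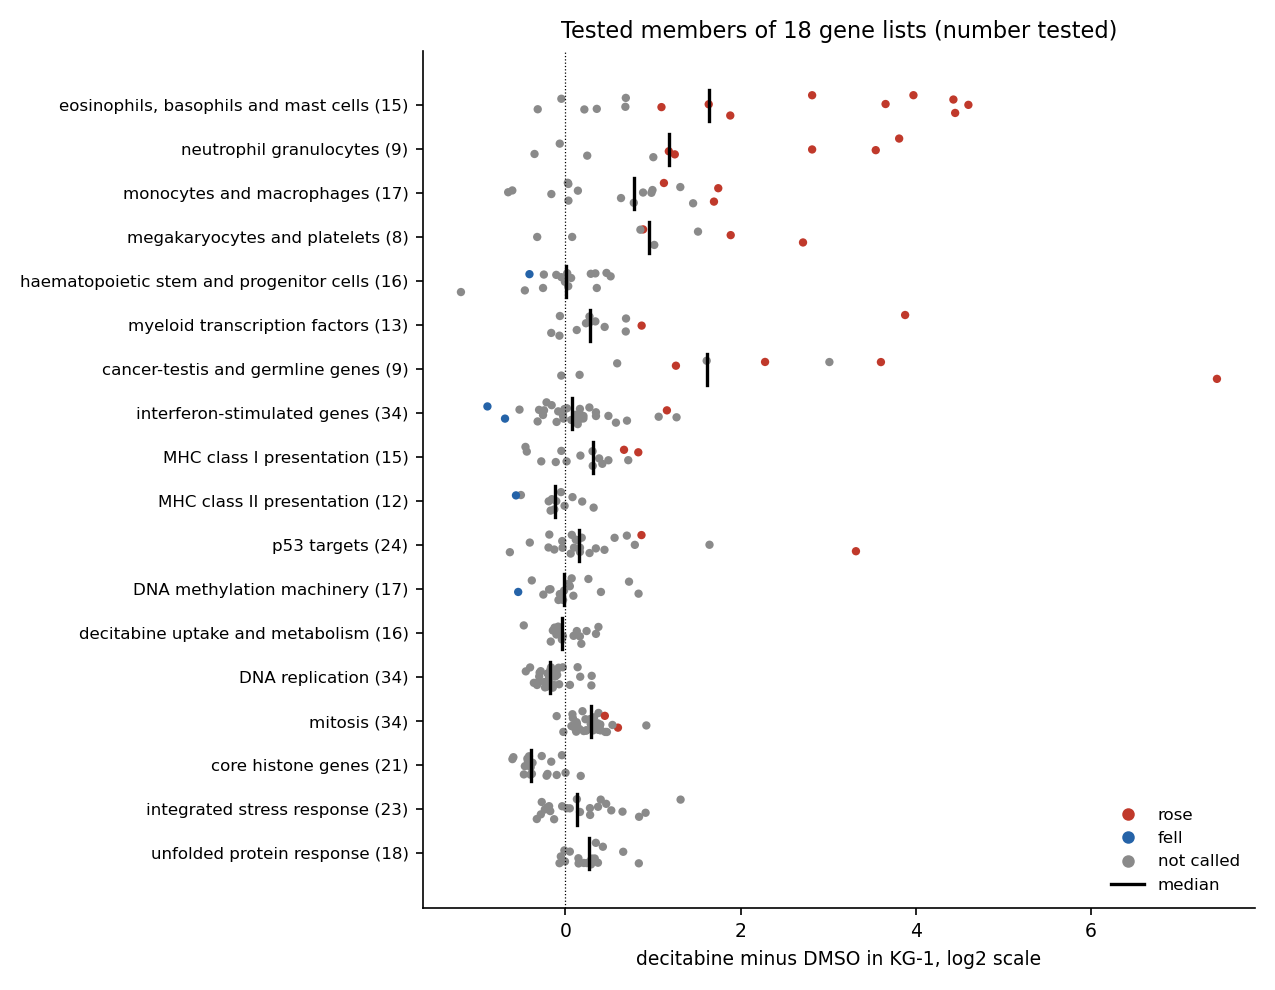
Decitabine minus DMSO difference (log2 scale, x axis) of each tested member of the gene lists, with called members coloured and bars at the list medians. The eosinophil, basophil and mast cell list has a median of 1.64 with 9 risen members, and the replication list a median of -0.17 with 0.

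Among the other large rises were genes nearly silent in DMSO. PNMA5 (chrX:152988824-152994127), a gene of the paraneoplastic antigen family, was at 214, 353 and 237 against 1.02, 0 and 0, or 1 read in the DMSO arm, so the fitted size depends on the pseudocount (log2 fold change 7.43, SE 0.43, adjusted p = 0.000172, at most 0.0151 with any 1 library left out). COL14A1 (chr8:120059780-120372036), a fibril-associated collagen, was at 5800, 5141 and 5813 against 49.04, 28.7 and 57. Its values were tight in the decitabine arm (log2 fold change 6.82, SE 0.18, adjusted p = 3.35e-06, at most 0.000346 with any 1 library left out). MYO18B (chr22:25742144-26031041), an unconventional myosin, was at 286, 383 and 219 against 5.23, 7.11 and 5.49 (log2 fold change 5.33, SE 0.26, adjusted p = 0.000101, at most 0.004595 with any 1 library left out). USP15 (chr12:62260338-62417431), a deubiquitinase, was at 538, 549.6 and 559.8 against 21.9, 12.8 and 28.8 (log2 fold change 4.49, SE 0.23, adjusted p = 0.000118, at most 0.004595 with any 1 library left out). OSBPL10 (chr3:31657890-32077580), an oxysterol-binding protein relative, was at 103, 161 and 147 against 7.02, 5.81 and 7.403 (log2 fold change 3.99, SE 0.28, adjusted p = 0.000544, at most 0.0197 with any 1 library left out). RHEX was at 112, 103 and 138 against 4.22, 20.9 and 5.45 and CTHRC1, a secreted protein with collagen repeats, at 123, 171 and 124 against 7.21, 10.8 and 5.71. Their log2 fold changes were 4.204 and 4.05 (adjusted p = 0.00244 and 0.000482), and these 7 genes were called under all 19 alternatives.

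The calls of the remaining large rises were lost when single libraries were left out. ABCB4, a phospholipid transporter, was at 58.99, 81.6 and 28.2 against 0, 2.995 and 2.77 (log2 fold change 4.42, SE 0.71, adjusted p = 0.0214, lost without decitabine replicate 1, 2 or 3, with values up to 0.201). KRT8, a keratin of simple epithelia, was at 262, 395 and 279 against 23.5, 0 and 19.1 (log2 fold change 4.13, SE 0.74, adjusted p = 0.0354, lost without decitabine replicate 1, 2 or 3, or DMSO replicate 1 or 3, with values up to 0.183), the 1 gene called of 4 tested epithelial genes. GAS2L1, a cytoskeletal linker, was at 80.1, 122 and 69.5 against 4.05, 0 and 4.81 (log2 fold change 4.13, SE 0.53, adjusted p = 0.00929, lost without decitabine replicate 1 or 3, with values up to 0.109). SERPIND1, heparin cofactor II, was at 35.2, 31.1 and 26.4 after decitabine and at 0 in all DMSO libraries. Against a floor of 3 reads over the DMSO arm it was at least 29.2-fold higher (adjusted p = 0.0137, lost without decitabine replicate 1, 2 or 3, with values up to 0.224).

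PNMA5, USP15 and OSBPL10 have promoters of another kind, shown for contrast with those of the eosinophil, basophil and mast cell list. Each CG is in capitals, and the lines again give the 250 bases before the RefSeq start (GRCh38.p14).
PNMA5, chrX:152994117-152994366, minus strand: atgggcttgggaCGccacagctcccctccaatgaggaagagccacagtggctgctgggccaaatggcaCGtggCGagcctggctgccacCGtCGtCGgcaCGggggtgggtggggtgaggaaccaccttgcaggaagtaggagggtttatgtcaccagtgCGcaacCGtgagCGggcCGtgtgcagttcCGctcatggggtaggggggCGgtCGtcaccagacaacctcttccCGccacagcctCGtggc
USP15, chr12:62260154-62260403, plus strand: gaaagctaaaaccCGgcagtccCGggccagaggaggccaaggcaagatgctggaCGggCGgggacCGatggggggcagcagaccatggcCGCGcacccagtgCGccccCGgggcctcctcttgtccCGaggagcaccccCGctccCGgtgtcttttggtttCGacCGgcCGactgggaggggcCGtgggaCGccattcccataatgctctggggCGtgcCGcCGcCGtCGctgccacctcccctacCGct
OSBPL10, chr3:31981263-31981512, minus strand: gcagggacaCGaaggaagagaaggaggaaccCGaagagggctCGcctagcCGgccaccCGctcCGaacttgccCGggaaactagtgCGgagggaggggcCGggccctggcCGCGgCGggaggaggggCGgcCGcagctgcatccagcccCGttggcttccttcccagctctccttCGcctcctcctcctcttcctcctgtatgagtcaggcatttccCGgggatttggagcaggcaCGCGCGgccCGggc
They hold 16, 23 and 21 CpG, with observed to expected CpG ratios of 0.604, 0.743 and 0.702, against 0.107 for CLC. Not every large rise outside that list is of this kind. KRT8 and CEBPE hold 1 and 2 CpG, with ratios of 0.0663 and 0.0992. The windows of KRT8 (chr12:52926470-52926719) and OSBPL10 lie far inside the annotated gene spans (chr12:52897187-52949954 for KRT8). Other starts of these genes were not looked at.

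Across the risen genes, promoters held fewer CpG than those of tested genes. Among 224 of 303 risen protein-coding genes with an entry the median was 15.5 CpG, against 21 in 10361 of 12849 tested and 19 in 46 of 60 fallen genes. The 48 risen genes with a log2 fold change of at least 2 had a median of 5.5, and 9.01% of tested genes had fewer than 5. Over all promoters in the table the median was 11, below that of the risen genes. With a DMSO mean below 10, tested protein-coding genes had a median of 14 and risen ones 4. The letters TTNNGNAA, a loose form of the C/EBP motif, stood on either strand in 34.4% of risen, 24.2% of tested and 33.2% of all promoters. These are descriptions with no test, and methylation was not analysed here.

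**Figure D4:**
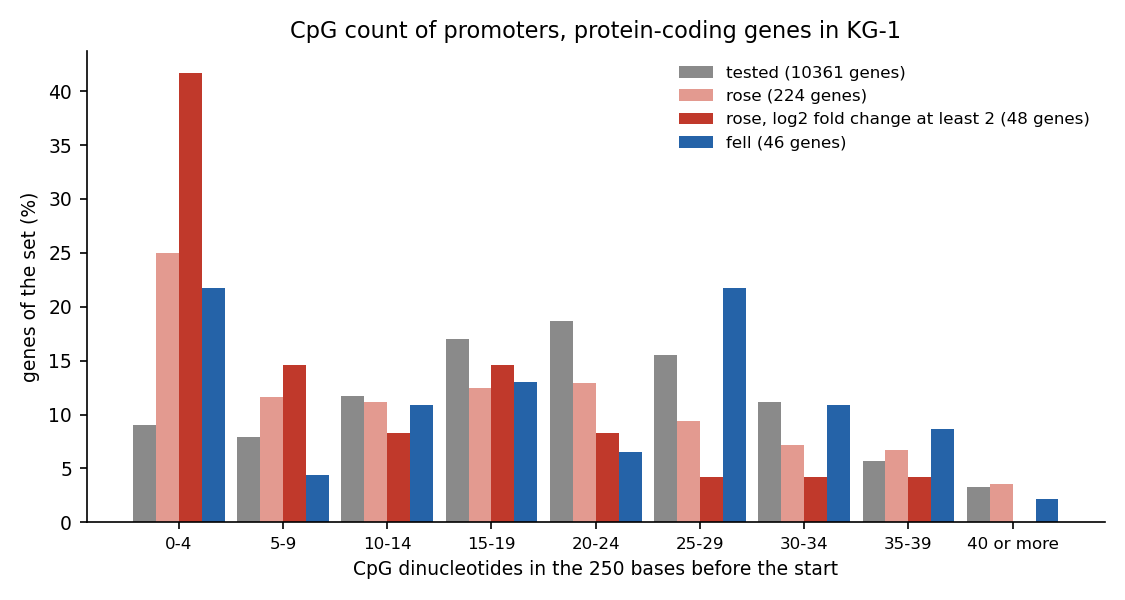
Share of genes (percent of the set, y axis) by number of CpG in the 250 bases before the start (x axis), for protein-coding genes tested, risen, risen with a log2 fold change of at least 2, and fallen. In the class of 0 to 4 CpG stand 9.01% of tested, 25% of risen and 41.7% of strongly risen genes.

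Falls were fewer and smaller. TERT (chr5:1253147-1295069), the catalytic subunit of telomerase, was at 13.9, 12.1 and 29.2 against 98.4, 57.98 and 194 (log2 fold change -2.66, SE 0.45, adjusted p = 0.02504, lost without decitabine replicate 1, 2 or 3, or DMSO replicate 1 or 3, with values up to 0.176). C6orf141 (chr6:49550646-49561907) was at 947, 969 and 958 against 2998, 3366 and 3325, with little spread in either arm (log2 fold change -1.74, SE 0.09, adjusted p = 0.000118, at most 0.004595 with any 1 library left out). CCR7 (chr17:40553769-40565472), the receptor that guides lymphocytes and dendritic cells to lymph nodes, was at 19.1, 23.4 and 18.7 against 64.4, 108 and 72.4 (log2 fold change -1.84, SE 0.25, adjusted p = 0.0116, lost without decitabine replicate 1 or 3, or DMSO replicate 3, with values up to 0.0902). C10orf105 was at 22.8, 29.8 and 22.2 against 100.5, 59.95 and 99.4 (log2 fold change -1.99, SE 0.25, adjusted p = 0.00818, lost without decitabine replicate 1 or 3, with values up to 0.0783). TNFSF8, the CD30 ligand, was at 85.2, 104.7 and 80.6 against 216, 199 and 191 (log2 fold change -1.25, SE 0.17, adjusted p = 0.0107, lost without decitabine replicate 1 or 3, or DMSO replicate 1, with values up to 0.0906). FAM71F2, FAM83G, the synaptic scaffold SHANK2, the adaptor DOK6, the ceramide synthase CERS1 and ZNF497 had log2 fold changes of -1.89, -1.68, -1.47, -1.36, -1.26 and -1.26. Each of these 6 calls was lost without decitabine replicate 1 or 3, or DMSO replicate 1 or 3, and the highest adjusted p lay between 0.153 and 0.245.

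Among genes not annotated as protein-coding the imprinted RNA H19 (chr11:1995176-2001470) was at 388, 386 and 375 against 36.9, 30.2 and 23.7 (log2 fold change 3.64, SE 0.22, adjusted p = 0.000206, at most 0.00768 with any 1 library left out), the 1 gene called of 14 tested imprinted genes. LINC01344 had 5.41 from about 1 read in DMSO (adjusted p = 0.0141, lost without decitabine replicate 1, 2 or 3, with values up to 0.173), AL109837.3 2.76 (adjusted p = 0.00139, at most 0.0258 with any 1 library left out) and PROSER2-AS1 2.58 (adjusted p = 0.00384, lost without decitabine replicate 1 or 3, with values up to 0.0611). The largest falls were AC022140.1 at -2.14, IGHV3-30 at -1.63, MIR1-1HG-AS1 at -1.37 and AC004540.2 at -1.32, each lost without decitabine replicate 1 or 3, or DMSO replicate 1. Whether reads were counted by strand is not stated, so antisense values are uncertain. IGHV3-30 is annotated as an immunoglobulin variable gene and has near copies, and AL109837.3 has no annotated type.

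Of 48 listed cancer-testis and germline genes 9 reached the filter, 4 of them rose and 16 others were at 0 in all 6 libraries, MAGEA1 and CTAG2 among them. The median over those tested was 1.61, with 3 below 10 in DMSO that passed the filter through the decitabine arm (PRAME, PNMA5 and H1-6), and 1 rose with equal weights, 1 without replicate 2 of both arms and 1 to 3 with any 1 library left out. Beside PNMA5, the testis linker histone H1-6 was at 34.1, 21.5 and 31.5 against 1.002, 6.64 and 1.78 (log2 fold change 3.601, SE 0.56, adjusted p = 0.0184, lost without decitabine replicate 1, 2 or 3, or DMSO replicate 1, with values up to 0.201). GTSF1, a partner of piRNA silencing, was at 91.7, 111 and 73.3 against 10.7, 17.1 and 25.4 (log2 fold change 2.28, SE 0.37, adjusted p = 0.0225, lost without decitabine replicate 1, 2 or 3, with values up to 0.167). PIWIL4, a PIWI protein, was at 110, 82.8 and 96.5 against 32.5, 46.98 and 51.2 (log2 fold change 1.26, SE 0.25, adjusted p = 0.0474, lost with any 1 library left out, with values up to 0.2596).

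Of 34 tested interferon-stimulated genes 1 rose and 2 fell, with a median of 0.08. RSAD2 (chr2:6865806-6898239), the antiviral protein viperin, was at 1960, 1797 and 1913 against 3687, 3444 and 3461 (log2 fold change -0.89, SE 0.08, adjusted p = 0.00244, at most 0.0349 with any 1 library left out). Its neighbour CMPK2 (chr2:6840570-6866635), a nucleotide kinase whose span overlaps it on the other strand, was at 4203, 3360 and 4169 against 6364, 5623 and 7087 (log2 fold change -0.69, SE 0.1039, adjusted p = 0.0169, lost without decitabine replicate 1 or 3, or DMSO replicate 1 or 3, with values up to 0.109). Where strand is not used in counting, reads from the overlap of these 2 genes cannot be told apart. OAS3, an activator of RNase L, was at 158, 128 and 182 against 67.7, 62.6 and 81.7 (log2 fold change 1.16, SE 0.1952, adjusted p = 0.0244, lost without decitabine replicate 1 or 3, or DMSO replicate 1, with values up to 0.171). In the fit over all lines, where 3 rose and 2 fell in KG-1, 11, 8, 0 and 23 of 35 rose in the lines MOLM-13, MOLM-14, OCI-AML3 and, last, SKM-1. In the same order 3, 0, 1 and 1 fell. Over all genes 13.9%, 4.73%, 2.17% and 22.3% rose there, and the share for KG-1 in that fit is not reported here. Of the list IFITM2, RSAD2, STAT2, SAMD9L and TRIM22 responded lower in KG-1 than in the mean of those lines. Of 12 tested nucleic acid sensors limma called 0.

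Of 15 tested MHC class I genes 2 rose (median 0.31). HLA-B was at 1686, 1920 and 2070 against 1220, 752 and 979 (log2 fold change 0.83, SE 0.16, adjusted p = 0.03798, lost without decitabine replicate 1, 2 or 3, or DMSO replicate 2 or 3, with values up to 0.197). Of 12 class II genes 1 fell, their activator CIITA, at 2180, 2416 and 2525 against 3602, 3364 and 3384 (log2 fold change -0.56, SE 0.09589, adjusted p = 0.02504, lost with any 1 library left out, with values up to 0.179). Of 18 NF-kB targets 2 rose (median 0.55). NFKB2, which encodes p100, was at 303, 364 and 361 against 131, 211 and 122 (log2 fold change 1.32, SE 0.18, adjusted p = 0.0126, lost without decitabine replicate 1 or 3, or DMSO replicate 1, with values up to 0.107), and BIRC3, an inhibitor of apoptosis, at 553, 623 and 636 against 265, 183 and 276 (log2 fold change 1.196, SE 0.15, adjusted p = 0.00801, lost without decitabine replicate 1 or 3, with values up to 0.0895).

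Of 24 tested p53 targets 2 rose and 0 fell (median 0.15), and with equal weights 0 rose. TP53I3, an oxidoreductase that was below 10 in DMSO and passed the filter through the decitabine arm, was at 26.3, 18.4 and 26.1 against 2.84, 0 and 1.26 (log2 fold change 3.32, SE 0.68, adjusted p = 0.0499, lost without decitabine replicate 2, or DMSO replicate 1 or 3, with values up to 0.1295). BTG2, an antiproliferative gene, was at 407, 403 and 391 against 200.5, 159 and 256 (log2 fold change 0.87, SE 0.16, adjusted p = 0.03896, lost without decitabine replicate 1, 2 or 3, or DMSO replicate 1 or 2, with values up to 0.215). CDKN1A, which encodes p21, was at 58.7, 23.9 and 34.02 against 14.5, 6.15 and 13.2 without overlap and was not called (log2 fold change 1.65, adjusted p = 0.0966). MDM2, the p53 inhibitor, had 0.28 (adjusted p = 0.216).

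Of 17 tested genes of DNA methylation 0 rose and 1 fell. DNMT3B, a de novo methyltransferase, was at 2651, 3134 and 2412 against 3876, 4327 and 3518 (log2 fold change -0.54, SE 0.11, adjusted p = 0.0468, lost with any 1 library left out, with values up to 0.237). DNMT1, the maintenance enzyme, was at 4251, 7410 and 3818 against 3741, 7528 and 3992, highest in the shallow library of both arms (log2 fold change 0.05, adjusted p = 0.9496). DNMT3A had 0.41 and UHRF1, which recruits DNMT1, -0.17. Of 16 tested genes of decitabine uptake and metabolism limma called 0. DCK, the kinase that activates the drug, was at 2786, 8901 and 2172 against 2329, 1994 and 2842, with the high value in a shallow library (0.17, adjusted p = 0.886). The transporter SLC29A1 had 0.24 and the phosphohydrolase SAMHD1 0.35, and the deaminase CDA was at most 1.73 in any library. FGFR1 was at 718, 405 and 697 against 657, 1388 and 747 (-0.17, adjusted p = 0.804), and of 22 genes of its pathway SPRED2, an inhibitor of ERK signalling, rose (log2 fold change 0.75, adjusted p = 0.0232, lost without decitabine replicate 1, 2 or 3, or DMSO replicate 1 or 3, with values up to 0.144).

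Of 34 mitosis genes 2 rose, 32 were above 0 and the median log2 fold change was 0.29. KIF2C, a microtubule depolymerase, was at 3899, 5080 and 4923 against 2874, 3053 and 2968 (log2 fold change 0.6005, SE 0.12, adjusted p = 0.0424, lost without decitabine replicate 2 or 3, or DMSO replicate 1, 2 or 3, with values up to 0.198). HMMR, a spindle protein, was at 2012, 2000 and 2177 against 1529, 1408 and 1547 (log2 fold change 0.45, SE 0.09, adjusted p = 0.0463, lost with any 1 library left out, with values up to 0.236). Of 34 replication genes limma called 0, 5 were above 0 and the median was -0.17. Of 21 core histone genes limma called 0, 2 were above 0 and the median was -0.395. Over all genes tested 8778 of 16824 were above 0. At an unadjusted p below 0.05 stood 2468 of all 16824 genes, 16 mitosis, 9 replication and 8 histone genes, 2 sensors and 2 genes of decitabine metabolism.

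The response of KG-1 was then tested against the mean response of the 4 other lines over all 30 libraries. Of 20993 genes 538 responded higher in KG-1 (2.56%) and 339 lower (1.61%), or 4.18% in all. Of the 328 genes that rose in KG-1, 138 responded higher than in the other lines and 2 lower, and of the 76 that fell, 26 responded lower. These genes were chosen in the same KG-1 libraries that enter the difference, so the direction follows in part from the choice. Without decitabine replicate 1 the counts were 300 and 162, without decitabine replicate 3 they were 290 and 149, and without DMSO replicate 1 they were 358 and 193. A gene silent in the other lines has a spread of 0 there, which lowers its estimated error. Of the 328 rises, shared calls numbered 128 (39.02%) in MOLM-13, which is 4.39% of its 2917 rises. There were 107 (32.6%) in MOLM-14, which is 10.8% of its 993 rises, 54 (16.5%) in OCI-AML3, which is 11.8% of its 456 rises, and 201 (61.3%) in SKM-1, which is 4.297% of its 4678 rises. The share of all genes that rose was 13.9%, 4.73%, 2.17% and 22.3% in these lines. Of the 76 falls, 14, 5, 4 and 15 were called as falls there, where 12.1%, 3.63%, 0.605% and 15% of all genes fell, and 9, 3, 5 and 18 were called as rises. Of the 328 rises, 27, 10, 1 and 19 were called as falls. In all 4 lines 23 of the rises were called, and in none 72.

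Granule and lineage genes differed between lines gene by gene. CLC responded higher in KG-1 by 4.28 (log2 scale, SE 0.45, adjusted p = 9.24e-07), with changes of -0.43, -0.55, 0.00 and 2.12 in the lines MOLM-13, MOLM-14, OCI-AML3 and, last, SKM-1. In SKM-1 its mean went from 2589 to 11270. PRG2 differed by 3.44 (adjusted p = 6.68e-06), with 1.02, -0.28, -0.38 and 3.69 in the same order. RNASE2 differed by 2.55 (adjusted p = 1.99e-08), with 0.23, 0.06, 0.98 and -0.18. MPO differed by 2.398 (adjusted p = 0.0113), with 2.503, 2.01, 0.73 and -0.66, the last from a DMSO mean of 41750. CEBPE differed by 2.03 (adjusted p = 0.0127), with 3.44, 1.61, 1.37 and 0.94, and GFI1 by 1.02 (adjusted p = 6.52e-07), with 0.13, 0.00, 0.01 and -0.74. HDC differed by 2.45 (adjusted p = 0.0163), although its change in SKM-1 was 7.84. Of the eosinophil, basophil and mast cell list CLC, PRG2, RNASE2, HDC and TPSAB1 responded higher in KG-1 than the mean of the other lines and GATA2 lower. In the fit over all lines, the median of the 15 members tested in KG-1 was 1.63 in SKM-1 on its own and 1.63 in KG-1. Of all 17 members 11 rose in SKM-1 and 7 in KG-1. Over all genes 22.3% rose in SKM-1, and the share for KG-1 in that fit is not reported here.

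USP15, COL14A1 and ZNF595 also responded unlike the mean of the other lines. USP15 differed by 4.37 (adjusted p = 0.000278), and had DMSO means of 4252, 4794 and 3440 in MOLM-13, MOLM-14 and OCI-AML3. In SKM-1, where it was also low, it went from 3.22 to 4.74. COL14A1 differed by 4.07 (adjusted p = 0.000165), but went from 1.67 to 964 in SKM-1. ZNF595 rose in KG-1 (1218, 1216 and 1261 against 612, 667 and 574; log2 fold change 1.04, SE 0.09839, adjusted p = 0.00244), and by less than elsewhere (-3.43, adjusted p = 0.00185), where it had 4.29, 3.53, 1.62 and 8.45. Its DMSO means there were 4.203, 9.78, 295 and 1.76.

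**Figure D5:**
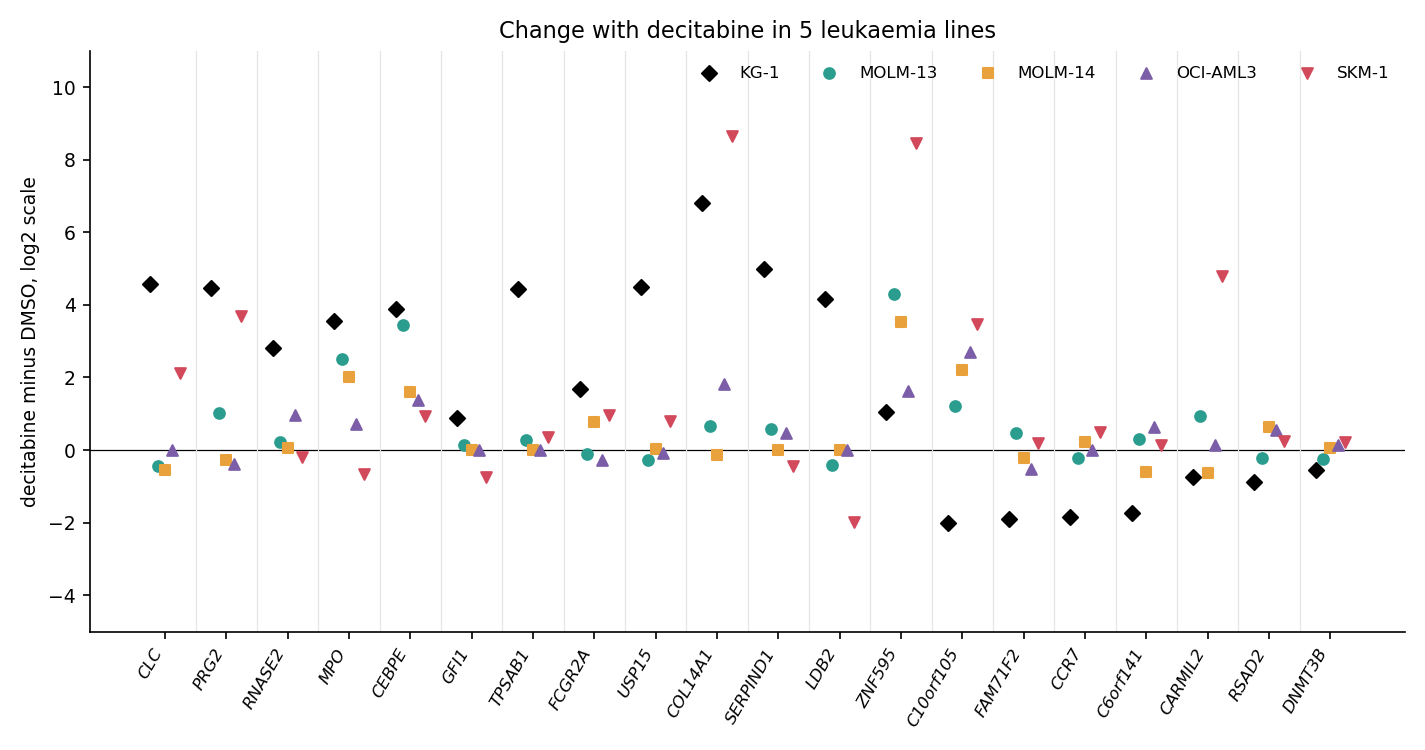
Decitabine minus DMSO difference (log2 scale, y axis) in 5 lines, from 1 fit over 30 libraries, with a symbol for each line, of genes called in KG-1. CLC and RNASE2 lie highest in KG-1, while C10orf105 lies below 0 in KG-1 and at 1.22, 2.19, 2.69 and 3.47 in the other lines.

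Of the 34 mitosis genes 22 responded higher in KG-1 and 0 lower. In the fit over all lines 25, 13, 0 and 26 of them fell in the lines MOLM-13, MOLM-14, OCI-AML3 and, last, SKM-1 and 0 in KG-1. HMMR differed by 0.72 (adjusted p = 5.28e-05) and the mitotic kinase PLK1 by 0.86 (adjusted p = 0.000156). Of 23 integrated stress response genes 16 responded higher in KG-1 and 0 lower. In the fit over all lines 13, 22, 12 and 18 of 24 such genes fell in the other lines, in the same order, and 2, 0, 0 and 2 rose. In KG-1 that fit called 3 rises and 0 falls. Over all genes 12.1%, 3.63%, 0.605% and 15% fell in the other lines. The cystine transporter SLC7A11 was at 1503, 1465 and 1454 against 993, 663 and 1174 in KG-1 and differed by 1.88 (adjusted p = 3.95e-07), with -0.48, -1.93, -1.32 and -1.72 in the other lines. TRIB3, a target of ATF4, differed by 1.75 (adjusted p = 1.33e-08). Within KG-1 limma called 0 of 23 stress genes (5 at an unadjusted p below 0.05, against 2468 of 16824 genes), and the list median was 0.13. PLK1, SLC7A11 and TRIB3 were chosen after their values were seen.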

How the data were processed

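RNA of 30 libraries of 5 lines, 6 of them KG-1, was sequenced as stranded total RNA, per the labels' protocols. The authors deposited 1 table of normalised counts, a signal equal to estimated counts divided by DESeq2 factors, as the table is named. Per the submitters' processing notes the tools included featureCounts, DESeq2, limma, STAR and Salmon 1.2.1, with the build hg38, and the annotation release and strand setting are not given in the sources used here. KG-1, MOLM-14 and OCI-AML3 columns were matched by line, arm letter and replicate number. Another 12 columns match no labelled sample and were not used, and 12 labelled samples of OCI-AML2 and THP-1 were not analysed here. Of 60240 genes 58064 were matched to GENCODE 29 (GRCh38).

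Whole reads could not be recovered, so no count model was run. Values were tested as log2(value + 1) with limma 3.58.1 in R 4.3.3 (trend and robust, arrayWeights by shallow or deep library) over genes with a mean of at least 10 in the 6 libraries, and adjusted by Benjamini-Hochberg over all of them. The spread rests on 4 residual degrees of freedom. The script was tested on simulated data. The difference between lines was fitted over 30 libraries. Depth was estimated from the smallest step of the values.

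Named genes were the 12 largest called rises and falls of protein-coding genes without overlap and with a mean of at least 50 in the higher arm, up to 4 called members of each list, a few fixed genes of drug action and lineage, and the 6 largest differences from the other lines in each direction that were also called in KG-1. Also named were the 4 largest rises and falls among genes not annotated as protein-coding. Genes named outside this rule were chosen after their values were seen, and a few genes that the rule names are not reported here. Members, lists and tests were chosen with earlier results of these data known. Alternatives changed weights, pseudocount, filter, scaling, replicate block and the libraries used.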

Additional observations from a re-analysis of the deposited data

Results flagged for a closer look

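The response of KG-1 differed from the mean response of the other 4 lines, by a test of the difference itself, for 538 genes in the higher and 339 in the lower direction. Among genes called in KG-1, the largest positive differences (log2 scale) were 4.83 for SERPIND1, 4.75 for LDB2, 4.37 for USP15, 4.28 for CLC, 4.27 for TPSAB1 and 4.07 for COL14A1, with adjusted p of 6.77e-09, 1.51e-05, 0.000278, 9.24e-07, 1.11e-05 and 0.000165. LDB2 was at 38.5, 10.3 and 40.4 against 0.536, 5.88 and 1.05 in KG-1, which is about 3 reads in the DMSO arm. DMSO means in the other lines were at most 0.527 for SERPIND1 and 0 for TPSAB1. The small spread there lowers the estimated error. The largest negative differences were -4.39 for C10orf105, -3.43 for ZNF595, -2.06 for CARMIL2, -1.96 for CCR7, -1.88 for FAM71F2 and -1.86 for C6orf141, with adjusted p of 9.61e-05, 0.00185, 0.04001, 0.0319, 0.0448 and 0.0303. CARMIL2 was at 484, 432 and 514 against 817, 993 and 812 in KG-1 (log2 fold change -0.76, SE 0.11, adjusted p = 0.0157, lost without decitabine replicate 1 or 3, or DMSO replicate 1 or 3, with values up to 0.123). C10orf105 changed by 1.22, 2.19, 2.69 and 3.47 in the lines MOLM-13, MOLM-14, OCI-AML3 and, last, SKM-1. Its DMSO means there were 0.912, 0.755, 4.34 and 1.49. In the same order CCR7 had 3.175, 3.23, 0 and 6.03 and C6orf141 5.41, 17.1, 12.8 and 7.325. Such low values leave little room for a fall in those lines. FAM71F2 was higher, at 19.8, 90.9, 40.6 and 20.3.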

How the results depend on the processing

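Beside 328 rises and 76 falls, equal weights gave 97 and 12, leaving out replicate 2 of both arms 90 and 10, a fit without trend or robust estimation 199 and 29, and all 5 lines with equal weights 696 and 153. With 1 library left out the counts ranged from 54 to 274 rises and from 8 to 46 falls. All 97 rises and 12 falls of the fit with equal weights were among the main calls, as were 86 of 90 and 9 of 10 of those without replicate 2. One weight per library gave 421 and 108. For the difference from the other lines (538 higher, 339 lower), the comparison with MOLM-14 and OCI-AML3 only gave 358 and 214, and leaving out 1 KG-1 library gave 290 to 526 and 149 to 313. The cause of these shifts was not tested. Fits that leave libraries out also have fewer samples. Of 80 named calls, 52 were lost with equal weights, 58 of 78 without decitabine replicate 1 and 61 of 79 without decitabine replicate 3. Signs turned for uncalled genes: DNMT1 had -0.02605 without decitabine replicate 2 and -0.05998 without DMSO replicate 1 (up to 0.1941 without decitabine replicate 3), DCK -0.06472 without replicate 2 of both arms and -0.0318 without decitabine replicate 2 (0.5196 without decitabine replicate 3, 0.6761 with equal weights), and FGFR1 0.01507 without replicate 2 of both arms (-0.5811 with equal weights). Depth limits low genes: 1 read was worth 4.30 and 6.64 in the shallow libraries and 0.595 to 1.00 in the others.

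With the replicate block the counts were 349 and 120, of which 269 and 56 were among the main calls, and the difference from the other lines gave 669 and 443. Deviations of samples with the same number correlated at 0.098, 0.099 and 0.178, and those of other pairs at -0.119 to -0.007. Every sample thus correlated best with its own number, a hint from the data and not from the design, and the samples were treated as sharing only a number.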

Other observations

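A few called genes belong to lists of other cell types or pathways. The surrogate light chain gene IGLL1 was at 55.6, 83.4 and 66.02 against 11.4, 22.8 and 11.6 (log2 fold change 2.25, SE 0.2956, adjusted p = 0.0106, lost without decitabine replicate 1 or 3, with values up to 0.102), 1 of 6 tested B cell genes. The T cell genes CD2, an adhesion receptor, and ZAP70, a kinase of the T cell receptor, were at 42.3, 28.98 and 38.3 against 9.01, 4.97 and 7.35 and at 159, 168 and 128 against 75.2, 55.6 and 53.6 (log2 fold changes 2.19 and 1.2, adjusted p = 0.0244 and 0.0347; CD2 lost without decitabine replicate 1, 2 or 3, or DMSO replicate 1 or 3, with values up to 0.215; ZAP70 lost without decitabine replicate 1, 2 or 3, or DMSO replicate 2 or 3, with values up to 0.215), 2 of 16. VIM, vimentin, was at 459, 610.3 and 548 against 243, 268 and 244 (log2 fold change 1.05, SE 0.14, adjusted p = 0.00948, lost without decitabine replicate 3, with values up to 0.0902). The ERK phosphatase DUSP5 was at 152, 175 and 164 against 57.2, 83.5 and 52.95 (log2 fold change 1.46, SE 0.19, adjusted p = 0.0107, lost without decitabine replicate 1 or 3, with values up to 0.0983), and the AP-1 factor FOSL2 had 0.73 (adjusted p = 0.0244, lost without decitabine replicate 1, 2 or 3, or DMSO replicate 1, with values up to 0.16).

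DAPK1, a death-associated kinase often methylated in tumours, was at 2371, 1282 and 2091 against 1220, 1244 and 1134 (log2 fold change 0.83, SE 0.16, adjusted p = 0.0381, lost without decitabine replicate 1 or 3, or DMSO replicate 1, 2 or 3, with values up to 0.236), the 1 gene called of 16 on its list. The ligand NECTIN2 was at 667, 608 and 666 against 456, 337 and 334 (log2 fold change 0.78, SE 0.15, adjusted p = 0.04399, lost without decitabine replicate 1, 2 or 3, or DMSO replicate 2 or 3, with values up to 0.223). The linker histone H1-1 was at 17.04, 42.97 and 23.8 against 0, 0 and 1.78, or 3 reads in the DMSO arm (log2 fold change 3.85, SE 0.78, adjusted p = 0.0491, lost without decitabine replicate 1 or 3, or DMSO replicate 1 or 3, with values up to 0.2996). HOXA3 was at 184, 195 and 154 against 280.4, 322 and 279, the 1 gene called of 13 HOX genes and cofactors (log2 fold change -0.73, SE 0.15, adjusted p = 0.0491, lost with any 1 library left out, with values up to 0.236).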
